A study of Bos taurus with 3 samples.

Results

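RNASE1 and RNASE2 encode secreted ribonucleases of the RNase A family, and their mRNA levels took different courses around parturition in the bovine mammary gland. They are the genes whose deposited description ends with either symbol, which gave 2 of 9154 genes. Both were chosen by their own tag counts in the 3 libraries, for a sustained and a transient rise, so those counts are a description and carry no test. Mammary biopsies came from 18 Holstein cows in their second parity. There were 6 cows at each time point: about day 35 before parturition (−35 d, a fully dry gland), about day 7 before parturition (−7 d, the first stage of lactogenesis) and day 3 after parturition (+3 d, colostrum production). The samples of the 6 cows were combined ahead of RNA extraction and gave 1 digital gene expression library, so every time point is 1 pool and no difference has a replicate check. Digital gene expression counts a tag of 21 bases next to a CATG site in place of whole transcripts, and levels are given as tags scaled to a library of 1000000 clean tags (TPM), with no factor for transcript length. Below, the first step sets −7 d against −35 d, the second step sets +3 d against −7 d, and the whole period sets +3 d against −35 d. The steps share the −7 d library, and each shares a library with the whole period.

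The enzymes of the RNase A family are small proteins with a signal peptide, and most of them cleave single-stranded RNA outside the cell. RNASE1 is the pancreatic-type ribonuclease, whose bovine protein is the classical RNase A. RNASE2 is known as the eosinophil-derived neurotoxin, an RNase with antiviral activity that is stored in the granules of eosinophils in humans. Several family members, angiogenin among them, are found in bovine milk. In the cytosol, the ribonuclease inhibitor RNH1 binds and blocks them.

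The libraries held between 5593237 and 5914422 clean tags, of which 40.5% to 53.0% fell on listed genes. The floor set by counting error, 3 tags, was 0.507 to 0.536 TPM. Intervals below are 95% intervals and cover counting error only, and PCR copies of a tag are not separate molecules. The 5 genes above 1% of a library (4 casein genes and PAEP, the beta-lactoglobulin gene) took 0.348% of the −35 d tags, 4.13% of the −7 d tags and 22.6% of the +3 d tags. The median gene had a log2 ratio below 0, with values of −0.16 (first step), −0.34 (second step) and −0.52 (whole period) over 5902 genes whose mean was 5 TPM or more. TMM scaling, which centres most genes near 0, adds 0.19, 0.31 and 0.50 to the log2 ratios of every gene in these comparisons. Genes of the labelled tissue were present in each library, with the milk protein gene CSN3 and the epithelial genes KRT8, EPCAM and ELF5 all listed. Of the 12 luminal epithelial marker symbols 9 were listed, and KRT18, KRT19 and PRLR were not.

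RNASE1 was higher in each later library. It had 115 tags at −35 d (19.4 TPM, interval 16.1 to 23.3), 341 tags at −7 d (61.0 TPM, 54.7 to 67.8) and 1307 tags at +3 d (223.6 TPM, 211.6 to 236.0). None of these intervals overlap. The level at −7 d was 3.14-fold that at −35 d (interval 2.53 to 3.91), and the level at +3 d was 3.67-fold that at −7 d (3.25 to 4.14). Over the whole period RNASE1 was 11.5-fold higher (9.50 to 14.0). In the order of listed genes by tags, it moved from place 3554 (−35 d) through 1203 (−7 d) to 184 (+3 d).

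RNASE2 was lowest at −35 d and highest at −7 d. Its 15 tags at −35 d (2.54 TPM, interval 1.42 to 4.18) stood against 616 tags at −7 d (110.1 TPM, 101.6 to 119.2) and 182 tags at +3 d (31.1 TPM, 26.8 to 36.0). The level at −7 d was 43.4-fold that at −35 d (26.1 to 78.1), with an interval set mainly by the small count at −35 d. At +3 d it was 3.54-fold lower than at −7 d (2.99 to 4.20). It still stood 12.3-fold above the dry gland (7.25 to 22.4), so the lower level at +3 d lay between those of the earlier libraries. By tags, RNASE2 moved among the listed genes from place 6806 (−35 d) to 571 (−7 d) and then 1891 (+3 d).

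**Figure D1:**
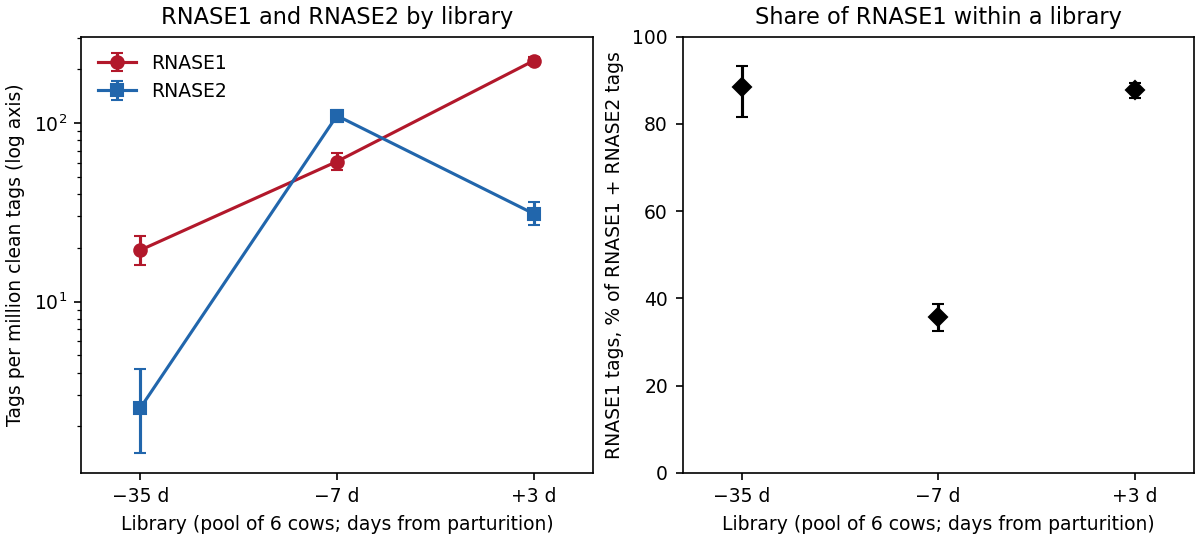
Left, TPM of RNASE1 (circles) and RNASE2 (squares) in the 3 libraries on a log axis, with 95% Poisson intervals for counting error; RNASE1 is higher in each later library, up to 223.6 TPM, while RNASE2 is highest at −7 d with 110.1 TPM. Right, RNASE1 tags as a percentage of the tags of both genes in each library, with 95% exact binomial intervals; the share is 88.5% at −35 d, 35.6% at −7 d and 87.8% at +3 d.

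Ranked by log2 ratio among genes with over 3 tags in both libraries of a comparison, the members stood near the ends of the order in each comparison. In the first step, RNASE2 had the second highest ratio of 7556 genes, and LALBA (alpha-lactalbumin, a subunit of lactose synthase) was the gene above it. RNASE1 was at place 110 in that order. In the second step, RNASE1 was at place 86 of 7425 genes, and RNASE2 was at place 222 counted from the lowest ratio. RNASE2 and RNASE1 were, over the whole period, next to each other at places 16 and 17 of 7518 genes. The 15 genes above both of them included CSN2, CSN1S1 and CSN1S2 (caseins), PAEP, LALBA and BTN1A1 (butyrophilin, a protein of the milk fat globule membrane). Genes of other kinds, such as COL8A1, CD5L and HLA-DQA1, were among the 15 too.

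The balance between the members within a library does not depend on the library total. RNASE1 made up 88.5% of the 130 tags of both genes at −35 d (interval 81.7% to 93.4%), 35.6% of 957 at −7 d (32.6% to 38.8%) and 87.8% of 1489 at +3 d (86.0% to 89.4%). At −7 d there were 1.81 RNASE2 tags for each RNASE1 tag, and in the other libraries there were 7.67 (−35 d) and 7.18 (+3 d) RNASE1 tags for each RNASE2 tag. The log2 ratio of RNASE1 was below that of RNASE2 in the first step (difference −3.79, interval −4.70 to −2.98). It was above that of RNASE2 by 3.70 in the second step (3.40 to 4.0). Between the dry gland and +3 d the difference was −0.09 (−1.01 to 0.73), so at the depth of the RNASE2 count a difference of up to about a log2 unit between the members could not be seen.

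RNASE1 and RNASE2 belong to a cluster of RNase A family genes on chromosome 10 of the assembly ARS-UCD2.0. This assembly was used only for names and for the order of genes, because the tags were matched to UMD 3.1. From RNASE13 to ANG2 the annotation has 19 protein-coding genes, of which 10 are in the tables, and 8 of these are the family genes with tags. In order they are RNASE13, RNASE2, BRB, RNASE1, RNASE6, RNASE4, ANG and ANG2. The other genes of this stretch with tags, NDRG2 and METT11D1 (METTL17 in the annotation), lie between RNASE13 and RNASE2. METT11D1, the gene next to RNASE2, had 40, 14 and 13 tags in the libraries in order of time, and NDRG2 had 796, 893 and 823. Their log2 ratios in the first step were −1.43 and 0.25, beside 5.44 for RNASE2.

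Names in this cluster need care. The annotation lists the RefSeq record of RNASE1 as LOC282340 and also gives RNASE1 as a synonym of LOC280930, the seminal ribonuclease gene (SRN). It gives RNASE3 as a synonym of RNASE2. RNASE1, BRB and SRN arose by recent duplication in ruminants and are close copies. Tags that match several genes were left out of the deposited counts, and 1 mismatch was allowed, so the split of tags among these copies is uncertain. SRN is not listed in any library. The annotated spans of RNASE4, ANG and ANG2 overlap, and the split of tags among these genes is uncertain as well.

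In the 6 other family genes, calls were made with the Audic-Claverie test of the study's methods, with a false discovery rate of at most 0.001 and a difference of at least 2-fold. This test compares the tags of a pair of libraries and not the conditions. Of the 6 genes in the first step, 1 was called higher and 2 lower, where 2.62% of the 8967 genes tested were called higher and 6.45% lower, 9.07% in all. In the second step none of the 6 was called, beside 3.12% higher and 10.4% lower (13.5% in all) among 8784 genes. Over the whole period, 2 were called higher and none lower, beside 2.33% and 16.3% (18.6% in all) of 8988 genes. The median log2 ratio of the 6 genes was −0.04, 0.50 and −0.24 in these comparisons, and that of all genes tested was −0.21, −0.30 and −0.54. After TMM scaling the medians of the 6 genes were 0.15, 0.80 and 0.26, so the sign of the first and of the last turned.

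ANG, the gene of angiogenin, took the same order of libraries as RNASE1 but over a smaller range. It had 237 tags at −35 d (40.1 TPM), 518 at −7 d (92.6 TPM) and 934 at +3 d (159.8 TPM). It rose 2.31-fold at −7 d and stood 3.99-fold above the dry gland at +3 d, both called. The call in the first step was lost with a 3-fold threshold and with the exact test of edgeR at an assumed coefficient of variation of 0.2, and that over the whole period was not. The log2 ratio of 0.79 in the second step was not called, but after TMM scaling it was 1.09 and called. The log2 ratio of RNASE1 was above that of ANG by 0.44 in the first step (interval 0.05 to 0.83) and by 1.09 in the second step (0.85 to 1.32).

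ANG2, a second angiogenin gene of cattle, had 78, 75 and 155 tags in the libraries in order of time (13.2, 13.4 and 26.5 TPM). It was near its dry-gland level at −7 d (log2 ratio 0.02, interval −0.45 to 0.50). At +3 d it was called higher than at −35 d, with a log2 ratio of 1.01 (0.61 to 1.42). Compared with −7 d its log2 ratio of 0.98 just missed the 2-fold threshold, and it was called after TMM scaling (1.29). The call over the whole period was lost with the 3-fold threshold and with the exact test of edgeR.

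BRB (brain ribonuclease) and RNASE6, an RNase made by monocytes and macrophages, had their lowest level where RNASE2 had its highest. BRB had 1125 tags at −35 d (190.2 TPM), 441 at −7 d (78.8 TPM) and 697 at +3 d (119.2 TPM). RNASE6 had 425 (71.9 TPM), 195 (34.9 TPM) and 268 (45.8 TPM). Both fell in the first step, BRB with a log2 ratio of −1.27 (−1.43 to −1.11) and RNASE6 with −1.04 (−1.30 to −0.80). After TMM scaling BRB was still called, at −1.08, while RNASE6 at −0.85 was not. With the 3-fold threshold or the exact test of edgeR neither was called. Neither was called in the second step, where the log2 ratios were 0.60 and 0.40.

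RNASE4 and RNASE13 were not called in any comparison. RNASE4, an RNase with a preference for uridine, had the most tags of the family in each library: 2578 at −35 d (435.9 TPM), 2297 at −7 d (410.7 TPM) and 1809 at +3 d (309.5 TPM). Its log2 ratio was −0.09 in the first step (0.10 after TMM scaling) and −0.49 over the whole period (0.00 after TMM scaling). RNASE13, which its description names as non-active, had 21, 20 and 21 tags. RNH1, the inhibitor of these enzymes, had 309, 221 and 295 tags (52.2, 39.5 and 50.5 TPM) and was not called in any comparison either.

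**Figure D2:**
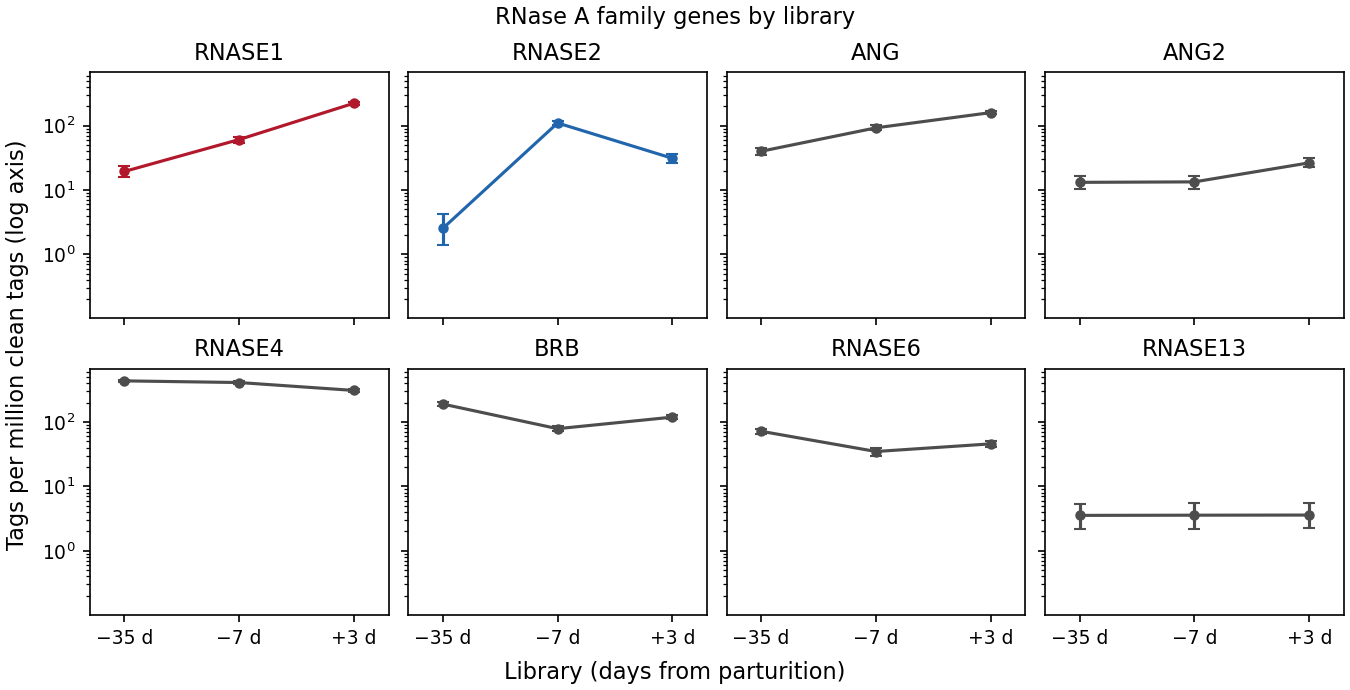
TPM of the 8 RNase A family genes in the tables, 1 panel a gene, in the 3 libraries on a shared log axis, with 95% Poisson intervals for counting error. RNASE1 and ANG are higher in each later library, RNASE2 is highest at −7 d, BRB and RNASE6 are lowest at −7 d, and RNASE4 has the most tags throughout, from 435.9 TPM at −35 d to 309.5 TPM at +3 d.

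The places of RNASE1 and RNASE2 among the 8 genes changed between the libraries. At −35 d, RNASE1 was at place 5, with an interval that overlapped that of ANG2, and RNASE2 was last, with an interval that overlapped that of RNASE13. At −7 d RNASE2 was second after RNASE4, just above ANG and with no overlap of their intervals, and RNASE1 was again at place 5. At +3 d RNASE1 was second after RNASE4, and RNASE2 was at place 6, with an interval that overlapped that of ANG2. A gene's yield of tags also depends on its CATG sites, so places between genes are a rough order.

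The tags of the family as a whole differed much less. The 8 genes together had 4594 tags at −35 d (776.7 TPM), 4503 at −7 d (805.1 TPM) and 5373 at +3 d (919.1 TPM). RNASE1 and RNASE2 together went from 22.0 to 171.1 and 254.7 TPM, and the 6 others from 754.8 to 634.0 and 664.4 TPM. As a share of the family's tags, RNASE1 made up 2.50% at −35 d (interval 2.07% to 3.00%), 7.57% at −7 d (6.82% to 8.38%) and 24.3% at +3 d (23.2% to 25.5%). RNASE2 made up 0.327% (0.183% to 0.538%), 13.7% (12.7% to 14.7%) and 3.39% (2.92% to 3.91%). RNASE4, the leading gene, went from 56.1% to 51.0% and 33.7% of the family's tags.

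**Figure D3:**
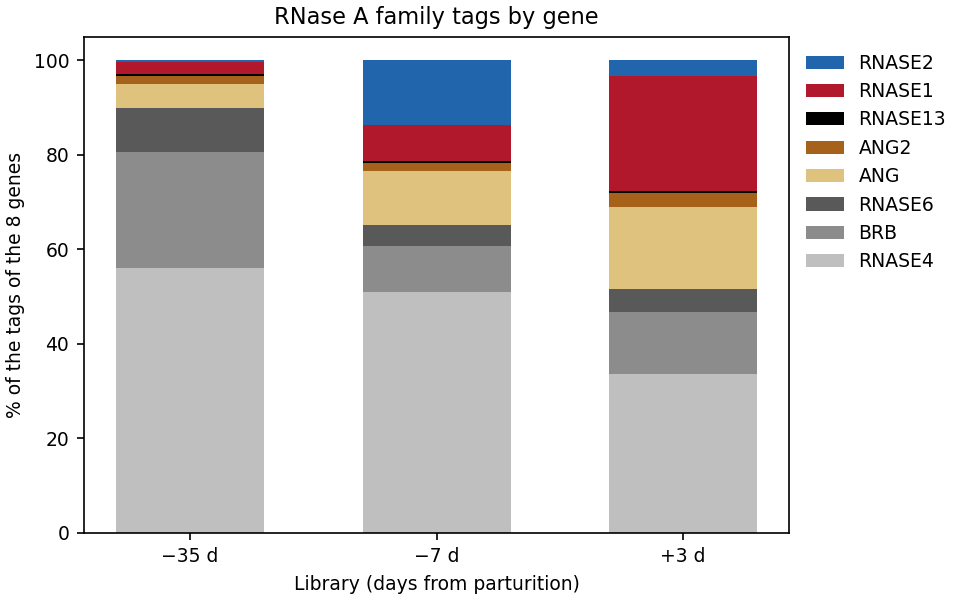
Percentage of the tags of the 8 RNase A family genes that each gene made up in the 3 libraries, as stacked bars that start at 0. The RNASE2 segment is 0.327%, 13.7% and 3.39% of the bar at −35 d, −7 d and +3 d, and the RNASE1 segment is 2.50%, 7.57% and 24.3%.

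The genes most like each member were those nearest to it in the plane of the log2 ratios of both steps. The 5891 other genes that averaged 5 TPM or more and had over 3 tags in each library were measured by their Euclidean distance over the 3 libraries. The ratios share the −7 d library, and likeness in 3 libraries is a description. The gene nearest to RNASE1 was CSN3 (kappa-casein), at a distance of 0.19 log2 units, with 8226, 22984 and 78577 tags in the libraries in order of time. The log2 ratios of RNASE1 and CSN3 differed by 0.09 (interval −0.23 to 0.41) before parturition and 0.16 (−0.01 to 0.34) across it. Among the next were ACTG2 (a smooth muscle actin, distance 0.26), SLC38A3 (a glutamine transporter, 0.48) and INF2 (a formin that acts on actin filaments, 0.77). In all, 10 genes lay within 1 log2 unit of RNASE1.

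No gene lay within 1 log2 unit of RNASE2. The nearest was PIGR, the receptor that carries polymeric immunoglobulins through the epithelium into milk, at a distance of 2.21. PIGR had 855 tags (−35 d), 7772 tags (−7 d) and 1748 tags (+3 d), so its highest level was at −7 d too. Its log2 ratio in the first step, 3.26, was below that of RNASE2 by 2.18 (interval 1.43 to 3.03), and its ratio in the second step, −2.22, was below by 0.39 (0.14 to 0.65). Next were SCD (stearoyl-CoA desaturase, distance 2.29), AQP3 (a water and glycerol channel, 2.67), MFSD2A (a lysophospholipid transporter, 2.81) and CABYR (3.03). All 5 had their highest level at −7 d, which follows largely from how they were chosen.

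The genes of other secreted proteins gave a setting for these courses. All 7 casein and whey protein genes rose at −7 d and again at +3 d, with a summed level of 3492 TPM (−35 d), 41619 TPM (−7 d) and 235178 TPM (+3 d), the order of libraries also seen for RNASE1. Among 18 genes of secreted defence proteins, 2 were called higher and 5 lower in the first step, beside 2.62% and 6.45% of all genes. There were 5 higher and 5 lower in the second step (3.12% and 10.4% of all genes), and 2 higher and 4 lower of 17 tested over the whole period (2.33% and 16.3%). Their median log2 ratios were −0.92, 0.25 and −0.82, beside −0.21, −0.30 and −0.54 over all genes tested. The 2 defence genes called higher in the first step were PIGR, given above, and PGLYRP1, a peptidoglycan recognition protein. PGLYRP1 had 78 tags (−35 d), 180 tags (−7 d) and 9 tags (+3 d), so its highest level was at −7 d as for RNASE2. It rose with a log2 ratio of 1.29 and then fell with −4.39. LPO (lactoperoxidase) had 0, 2 and 440 tags and was called higher at +3 d, with no fold given because its earlier counts were not over 3. CHI3L1 (a chitinase-like protein), HP (haptoglobin) and LBP (lipopolysaccharide-binding protein) fell in the first step, with −3.70, −2.12 and −1.99, and rose in the second, with 1.72, 1.12 and 2.39. SAA3 (a serum amyloid A protein) fell in the second step, with −2.00. LTF (lactoferrin) was lower at +3 d than at −35 d with −1.22, which was not called after TMM scaling (−0.72).

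The 20 genes of intracellular ribonucleases and RNH1 with tags held no call in the first step, beside 9.07% of all genes. In the second step 3 of them (15%) were called lower, beside 10.4% of all genes, and none higher. They were RNASEH2A, a subunit of the enzyme that removes RNA from RNA-DNA hybrids (12.7 to 3.93 TPM), EXOSC3, an exosome subunit (20.2 to 9.75 TPM), and POP5, a subunit of RNase P (20.7 to 10.3 TPM). After TMM scaling only RNASEH2A of these was called, with a log2 ratio of −1.38. Of 19 tested over the whole period, 4 (21.1%) were called lower, beside 16.3% of all genes, and none higher, and the median log2 ratios of the list were 0.06, −0.67 and −0.70, beside −0.21, −0.30 and −0.54 over all genes tested. After TMM scaling they were 0.25, −0.36 and −0.20.

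In pooled tissue, fewer cells of a type and less RNA per cell cannot be told apart. Of the 11 eosinophil marker symbols, RNASE3 is a synonym of RNASE2 in the annotation, and 9 others were not listed in any library, among them EPX, PRG2 and PRG3, which encode the main granule proteins, and CLC, IL5RA and CCR3. The symbol that remains is ALOX15, a lipoxygenase, with 0 tags (−35 d), 5 tags (−7 d) and 104 tags (+3 d), so it was highest at +3 d and not at −7 d as RNASE2 was. As a single gene, ALOX15 cannot give the course of eosinophils. The 6 neutrophil marker genes with tags summed to 69.2 TPM (−35 d), 59.0 (−7 d) and 66.7 (+3 d), and none was called in any comparison. Of all genes, 9.07%, 13.5% and 18.6% were called in the first step, second step and whole period. MPO, CSF3R, CXCR1 and CXCR2 were not listed. A marker that is not listed does not show that its cell type was absent. The endothelial markers VWF and FLT1 and the luminal epithelial markers KRT18, KRT19 and PRLR were not listed either.

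The 9 macrophage marker genes, in 10 records because MSR1 has 2, summed to 341.5 TPM (−35 d), 261.9 (−7 d) and 472.8 (+3 d), and so were lowest where RNASE2 was highest. Most of this sum was C1QA (98.9, 94.2 and 126.2 TPM) and C1QB (104.8, 99.2 and 196.4 TPM), which differed little in the first step. CD68 (35 to 5 tags), CD163 (46 to 11 tags) and CSF1R (308 to 126 tags) fell in the first step, with log2 ratios of −2.73, −1.98 and −1.21. In the second step CD163, CD14 and CSF1R rose, with 3.33, 2.20 and 1.27. These falls and rises were 3 of 10 records called lower and 3 of 9 called higher, beside 6.45% and 3.12% of all genes. The median log2 ratio of the list was −1.02 in the first step and 1.12 in the second step, and −0.83 and 1.43 after TMM scaling. Over all genes tested, without TMM scaling, it was −0.21 and −0.30. RNASE6 had its lowest level at −7 d as well. Of the 10 records, 9 had a log2 ratio below 0 in the first step, where RNASE2 was higher. The median over all genes tested was below 0 in that step too. ITGAM and MSR1 transcript variant 1, each with 2 tags at −35 d and 0 at −7 d, were under the floor of 3 tags. CD14 (17 to 24 tags) went the other way. All 9 records tested in the second step had a log2 ratio above 0, where RNASE2 was lower.

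In humans, endothelial cells are a known source of RNASE1. The 10 endothelial marker genes summed to 307.6 TPM (−35 d), 369.0 (−7 d) and 470.6 (+3 d), the same order of libraries as RNASE1. Most of this sum was ENG and ROBO4. The median log2 ratio of the list was −0.44 in the first step, 0.51 in the second step and 0.07 over the whole period. After TMM scaling it was −0.25, 0.82 and 0.57. Over all genes tested, without TMM scaling, the medians were −0.21, −0.30 and −0.54. None of the 10 was called in the first step, beside 2.62% higher and 6.45% lower of all genes. CLDN5 was the only call in the second step, higher with a log2 ratio of 1.15, beside 3.12% higher and 10.4% lower. Over the whole period, ROBO4 was called higher with 1.02 and KDR lower with −1.14 (−0.64 and not called after TMM scaling). Of all genes, 2.33% were called higher and 16.3% lower in that comparison, and RNASE1 had a log2 ratio of 3.52. The 9 luminal epithelial marker genes summed to 1576 TPM (−35 d), 1128 (−7 d) and 937.4 (+3 d). In the first step 3 of them were called lower, beside 6.45% of all genes. They were MUC1 (a mucin of the apical membrane, −1.09), CDH1 (E-cadherin, −2.16) and CLDN4 (claudin 4, −1.05). In the second step MUC1 was called higher with 2.16 and ELF5 lower with −1.19, beside 3.12% and 10.4%. After TMM scaling MUC1 (−0.90) and CLDN4 (−0.86) in the first step and ELF5 (−0.88) in the second were under 2-fold. The median log2 ratio over the whole period was −0.81 (−0.31 after TMM scaling), beside −0.54 over all genes tested. In that comparison MUC1 was called higher with 1.08, and CDH1 (−1.60) and EPCAM (an epithelial adhesion molecule, −1.24) lower, beside 2.33% and 16.3%. After TMM scaling MUC1 was the one still called. The part of these cell types in the levels of RNASE1 and RNASE2 was not tested.

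**Figure D4:**
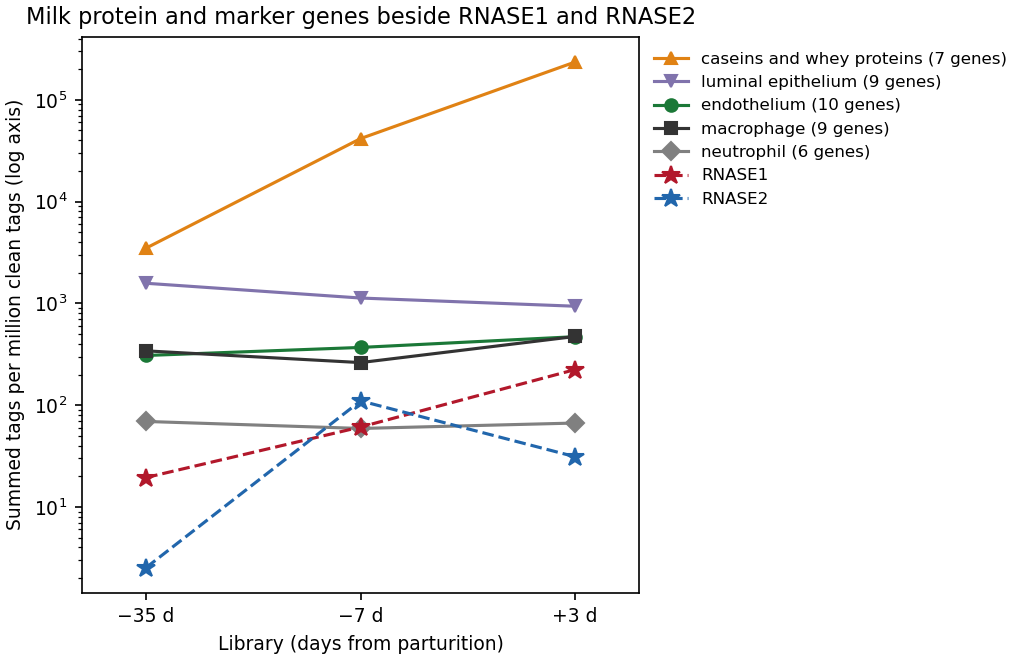
Summed TPM of the casein and whey protein genes and of 4 cell type marker lists, with RNASE1 and RNASE2 (stars, dashed lines), in the 3 libraries on a log axis. The macrophage sum is lowest at −7 d (261.9 TPM), where RNASE2 is highest. It is mostly C1QA and C1QB, which differ little between −35 d and −7 d. The milk protein sum (3492, 41619 and 235178 TPM) shares the order of libraries of RNASE1. So does the endothelial sum, which is mostly ENG and ROBO4. Of the 10 endothelial genes, 7 have a log2 ratio below 0 in the first step.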

How the data were processed

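Mammary tissue of 6 cows a time point was pooled and sequenced as 1 NlaIII tag library by Illumina sequencing. The authors removed adaptors, tags with unknown bases, of wrong length or with 1 copy, matched tags of CATG and the next 17 bases to the genes of Bos taurus UMD 3.1 with up to 1 mismatch, and left out tags of several genes. The deposited counts are these unambiguous tags per gene and the copies of each clean tag. The deposited TPM values scale the gene counts to the clean tags of the library, and recomputed values differed by at most 0.0050 TPM. Columns other than counts and TPM were not used, nor was the summary of mapping.

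Gene tables were joined by accession, a gene not listed was given 0 tags, and 7905 of 9154 genes matched the ARS-UCD2.0 annotation. The Audic-Claverie p (2 times the smaller tail) was adjusted by Benjamini-Hochberg over genes with a tag in either library, with 0 TPM set to 0.01 TPM and 0.5 tags added for medians. Folds are given for genes with over 3 tags in both libraries. Intervals are exact Poisson, exact binomial or, for the difference of log2 ratios of a pair of genes, exact conditional odds ratio intervals. The design has no replicates, so no spread among cows was estimated. Scripts were tested on simulated data.

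The genes and lists were chosen with earlier results of these data known. Named genes are the family genes of the tables, RNH1, up to 4 called genes with the largest ratio per other list and comparison, and the 5 genes nearest to each member. A gene among these is not reported here. LALBA and the genes above the members, the neighbours on the chromosome and markers named as not listed, or without a call (KRT8, ENG), LPO, and PGLYRP1, HP and CHI3L1 in a further step, were named after their values were seen. Lists mix current and older symbols (IGJ and JCHAIN), so symbols exceed genes. Alternatives were TMM and DESeq2 scaling, other library totals, a 3-fold threshold, Fisher's test, the exact test of edgeR (coefficient of variation set to 0.2) and a minimum mean of 5 TPM. Tools were Python 3.11.15, numpy 2.4.6, scipy 1.17.1, pandas 2.3.3, matplotlib 3.10.9, R 4.3.3, edgeR 4.0.16 and DESeq2 1.42.0.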

Additional observations from a re-analysis of the deposited data

How the results depend on the processing

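The first step is −35 d to −7 d, the second −7 d to +3 d. With 1 pool a time point, no result has a replicate check, and no paired analysis was possible because each pool held different cows. No log2 ratio of RNASE1 or RNASE2 changed sign under TMM scaling, DESeq2's size factors, totals without genes over 1% of a library, totals of tags on listed genes or 0.5 added tags. In that order without the last, RNASE1 in the second step was 2.18, 2.20, 2.18 and 1.52, RNASE1 over the whole period was 4.02, 4.04, 3.89 and 3.14, and RNASE2 in the second step was −1.51, −1.50, −1.51 and −2.18, all outside the counting interval, because these settings change the library totals. The other ratios of both genes stayed within their counting intervals, Wilson intervals left the shares as they were, and at least 4 of the 5 nearest genes of each member were kept under a 1 TPM filter and under TMM scaling.

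For the 6 other family genes, the 1 higher call in the first step became 0 with the exact test of edgeR (called the exact test from here on) and with a 3-fold threshold. The 2 lower calls became 1 with TMM, DESeq2 and totals without genes over 1%, and 0 with the exact test and 3-fold. In the second step, the 0 higher calls became 2 with TMM, DESeq2 and totals without genes over 1%. Over the whole period, the 2 higher calls became 1 with the exact test and 3-fold. Over the other lists together, lower calls in the first step went from 11 to 7 (3-fold) and 1 (exact test). In the second step, higher calls went from 18 to 11 (exact test), and lower calls from 9 to 5 (TMM and 3-fold) and 3 (exact test). Over the whole period, lower calls went from 11 to 3 (TMM), 4 (3-fold) and 3 (exact test). The exact test assumes a spread between pools that these data cannot measure. The count of 15 tags at −35 d limits every ratio of RNASE2 to that library. Over all genes, calls went from 235 higher and 578 lower to 378 and 350 with TMM in the first step (27 and 27 with the exact test), from 274 and 915 to 516 and 430 in the second (65 and 95), and from 209 and 1463 to 560 and 444 over the whole period (54 and 102).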
